A study of Mus musculus with 21 samples.

Results

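Matricellular proteins of activated fibroblasts were followed here through 8 genes chosen by symbol: Postn, Spp1, Tnc, Sparc, Cilp, Tgfbi, Fn1 and Fap. All 8 are among the 24054 rows of the deposited gene table, and all 8 passed the filter on low counts that left 14135 genes to test. The levels come from RNA sequencing of left ventricular myocardium of 21 C57BL/6J mice, 1 library per animal. The sham group (5 mice) had sham surgery and no drug, and the TAC group (5 mice) had transverse aortic constriction, a surgical narrowing that loads the heart with pressure, and no drug. The PDE5A inhibitor group (5 mice) had TAC and sildenafil, and the PDE9A inhibitor group (6 mice) had TAC and PF-04449613. Both drugs were given for 4 weeks from week 1 after surgery. The sources used here do not give dose, vehicle, age, sex or the degree of constriction, so the load on each heart is known only as a group label. Libraries came from whole myocardium, so a level is that of the tissue, not of fibroblasts alone.

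Matricellular proteins are secreted into the extracellular matrix but act mainly as signals: they bind integrins, growth factors and collagen and change how cells attach, migrate and build matrix. In the healthy adult heart most are scarce. After injury or pressure overload, fibroblasts turn into matrix-producing cells and make them together with collagen. Periostin (Postn) is the usual marker of that state. Fibroblast activation protein (Fap) is not a matrix protein but a serine protease on the surface of the same cells.

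Total counts per library ran from 25.9 to 41.0 M in sham, 22.7 to 30.5 M in TAC, 26.7 to 36.5 M in the PDE5A inhibitor group and 24.3 to 34.1 M in the PDE9A inhibitor group. Heart muscle markers were abundant in every library, with a summed level of 120571 CPM or more for 10 genes. The atrial markers Myl7, Myl4 and Sln summed to at most 3.11 CPM in all libraries but PDE9A inhibitor library 1, where they summed to 27.5 CPM. CPM are counts per M, scaled between libraries by TMM. PDE9A inhibitor libraries 1 and 4 had the highest shares of counts in Rn45s (0.326 and 0.416%, against 0.192 to 0.278% elsewhere), and the tests that use these libraries were rerun without them.

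The first comparison, TAC against sham, is that of pressure overload without a drug. All 8 genes rose, where 12.2% of all genes tested rose (edgeR's quasi-likelihood test, Benjamini-Hochberg adjusted p under 0.05). Their median log2 fold change was 1.89, against 0.00 over all genes tested. Together the 8 genes took 425.7 to 646.3 CPM in the sham libraries and 1038.3 to 5498.1 CPM in the TAC libraries. In 7 of the 8 the TAC libraries all lay above the highest sham library, which held for 8.52% of all genes, and Sparc was the exception. In bulk tissue, more cells of a type and more RNA per cell cannot be told apart.

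**Figure D1:**
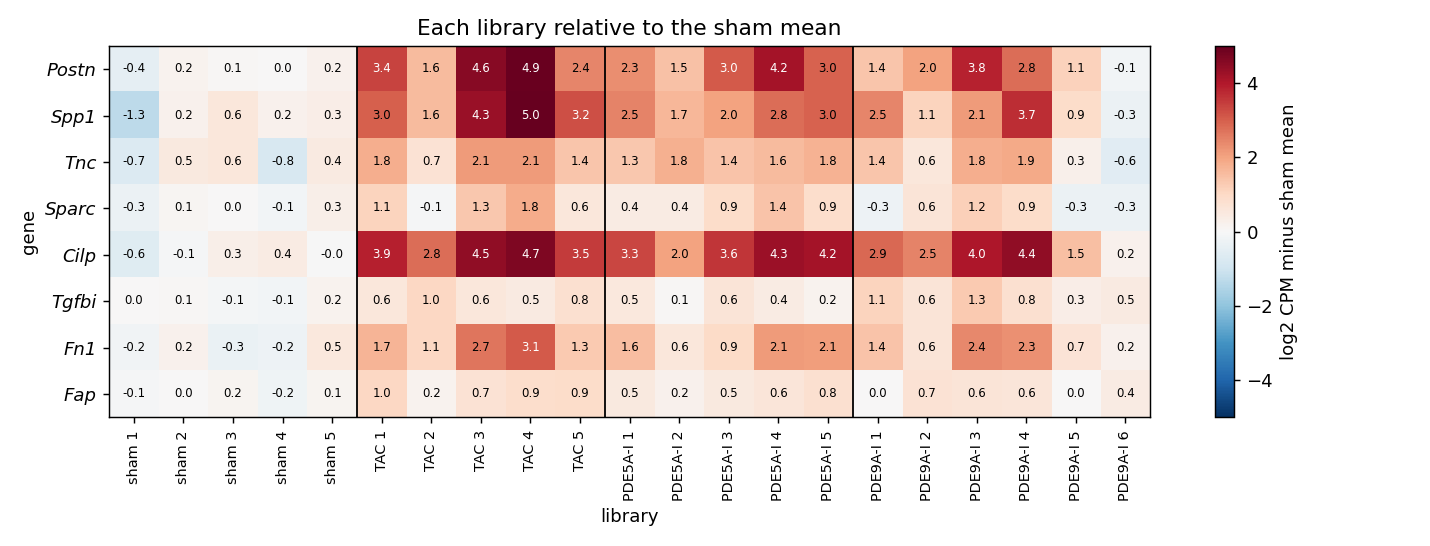
Log2 CPM of each gene (rows) in each library (columns) minus the gene's sham mean, as a colour, with vertical lines between the 4 groups. TAC libraries 3 and 4 are the darkest columns, TAC library 2 is the palest of its group, and PDE9A inhibitor library 6 looks like sham in all rows but those of Tgfbi and Fap.

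The largest changes were in periostin, osteopontin and cartilage intermediate layer protein. Postn (ENSMUSG00000027750.16, GRCm38 chromosome 3, 54361109 to 54391037, plus strand) encodes a fasciclin-domain protein that binds integrins and helps collagen fibres form. Its level was 67.5, 103, 96.3, 92.8 and 107 CPM in sham libraries 1 to 5 and 952, 279, 2187, 2812 and 497 CPM in TAC libraries 1 to 5. Every TAC library was above every sham library, and TAC libraries 3 and 4 were far above the other 3. The log2 fold change was 3.85 (SE 0.72, 95% interval 2.34 to 5.36, adjusted p = 0.00294), a 14.4-fold rise.

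Cilp (ENSMUSG00000042254.14, chromosome 9, 65265180 to 65280605, plus strand) encodes cartilage intermediate layer protein, a secreted matrix protein first known from cartilage that binds and restrains TGF-beta and IGF-1. It stood at 25.6, 37.6, 48.2, 52.0 and 38.9 CPM in sham and at 590.1, 276, 862, 993 and 440.5 CPM in TAC. The groups were far apart, and TAC libraries 3 and 4 were again the highest. Cilp had the largest fold change of the 8 genes (log2 3.97, SE 0.64, adjusted p = 0.00202), 15.6-fold.

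Spp1 (ENSMUSG00000029304.14, chromosome 5, 104435118 to 104441050, plus strand) encodes osteopontin, an integrin and CD44 ligand made by activated fibroblasts and by macrophages. It was scarce in sham, at 0.151, 0.560, 0.745, 0.557 and 0.619 CPM, the first of these from 4 counts. In TAC it stood at 4.26, 1.57, 10.7, 17.0 and 5.04 CPM, again highest in libraries 3 and 4 and lowest in library 2, with no overlap with sham. The log2 fold change of 3.86 (SE 0.70, adjusted p = 0.00262) thus rests on a low baseline. Another gene, Gm42793, shares 309 of the 1648 exon bases of Spp1 on the same strand. It has no row of its own, so its part in the Spp1 counts could not be checked.

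**Figure D2:**
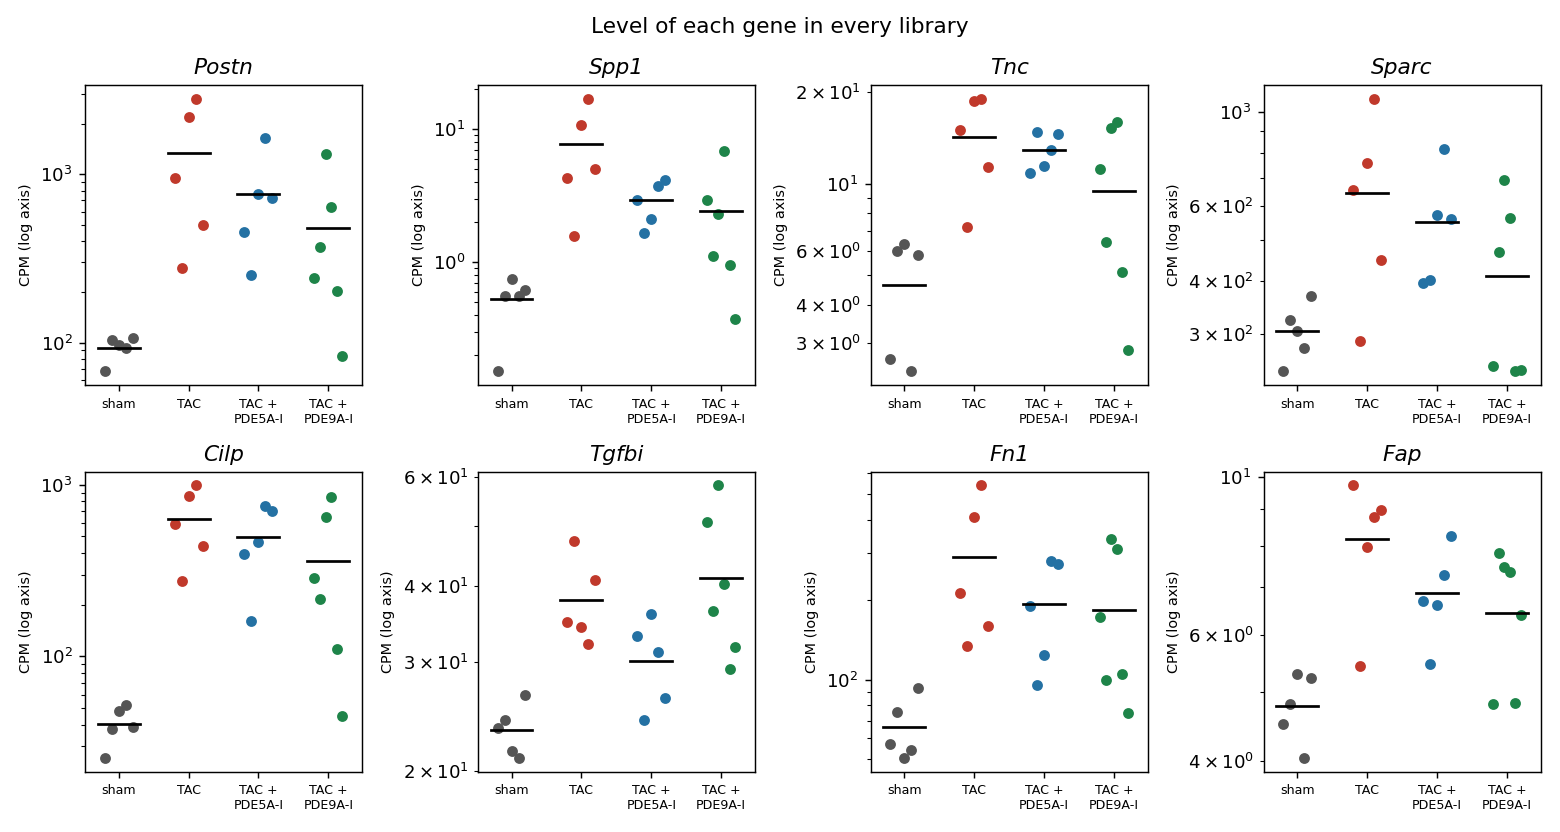
CPM on a log axis (vertical) of each gene by group (horizontal), 1 panel per gene; points are libraries and black lines are group means. Postn, Spp1 and Cilp show the widest gap between sham and TAC, and the PDE9A inhibitor points of Postn, Cilp and Tnc reach from the sham range to the TAC range.

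The sequences upstream of these 3 genes are printed because the genes rose and varied together. RefSeq promoter sequences (GRCm38.p6) were found for 6 of the 8 genes, in 9 entries, and the 250 bases before each start were searched on both strands. The motifs were TGANTCA for the transcription factor AP-1, TATAAA for the box near many start sites, CCAAT for a common promoter element, CATTCC for the TEAD factors, CAGACA for the Smad factors and the CArG box by name. The longer TATATAA was added after the sequences had been seen, and in Postn it overlaps the shorter box. Capitals mark matches on either strand, and each sequence ends at the base before the start.
Postn, chr3:54360857-54361106, plus strand: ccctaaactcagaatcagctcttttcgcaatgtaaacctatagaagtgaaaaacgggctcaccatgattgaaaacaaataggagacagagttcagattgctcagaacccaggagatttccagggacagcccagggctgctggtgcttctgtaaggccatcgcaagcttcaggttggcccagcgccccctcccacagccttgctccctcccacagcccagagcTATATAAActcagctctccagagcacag
Cilp, chr9:65264930-65265179, plus strand: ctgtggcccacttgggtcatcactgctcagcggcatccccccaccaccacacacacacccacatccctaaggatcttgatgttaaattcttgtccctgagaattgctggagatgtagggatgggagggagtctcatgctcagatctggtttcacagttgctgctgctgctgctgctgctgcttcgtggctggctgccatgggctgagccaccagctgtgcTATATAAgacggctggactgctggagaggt
Spp1, chr5:104434861-104435110, plus strand: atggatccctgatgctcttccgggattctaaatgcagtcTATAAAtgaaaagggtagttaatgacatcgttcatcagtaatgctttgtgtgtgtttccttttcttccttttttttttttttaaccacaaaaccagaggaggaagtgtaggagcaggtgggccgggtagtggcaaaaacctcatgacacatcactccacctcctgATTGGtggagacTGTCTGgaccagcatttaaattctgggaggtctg

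TATATAA began 28 bases before the Postn start and 30 bases before the Cilp start, and it also began 29 bases before the second of the 2 Tnc starts. It was on the gene's strand within 60 bases of the start in 0.898% of the 32851 promoter entries, and anywhere in the 250 bases, on either strand, in 3.04%. The Spp1 entry held TATAAA 211 bases before its start (a motif in 12.4% of entries), CCAAT on the other strand 46 bases before it (33.8%) and CAGACA on the other strand 34 bases before it (17.1%). CAGACA was also found upstream of the second Tnc start and of the Sparc entry, whose start lies 3103 bases inside the GENCODE start. The Tgfbi entry, the second Spp1 entry and the first Postn entry held none of these letters, and the AP-1, TEAD and CArG motifs were in none of the 9 entries (6.75%, 12.6% and 1.47% of all entries). These are matches of letters, with no measurement of binding behind them.

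The large adhesive glycoproteins fibronectin and tenascin-C rose less. Fn1 (ENSMUSG00000026193.15, chromosome 1, 71585520 to 71653200, minus strand) encodes fibronectin, the scaffold on which collagen and periostin are laid down. Its sham libraries held 57.4, 75.6, 50.6, 54.5 and 92.8 CPM and its TAC libraries 211, 134, 409, 540.1 and 159 CPM, with no overlap. The log2 fold change was 2.14 (SE 0.46, adjusted p = 0.00503), 4.39-fold. An antisense gene, Apol7d, shares 292 exon bases with Fn1, but its row held only 0 to 4 counts per library.

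Tnc (ENSMUSG00000028364.15, chromosome 4, 63959785 to 64047015, minus strand) encodes tenascin-C, which loosens cell adhesion during remodelling and binds several integrins. Its sham libraries fell into 2 low values, 2.65 and 2.42 CPM, and 3 near 6 (5.99, 6.33 and 5.81 CPM). TAC libraries held 15.05, 7.19, 18.6, 19.1 and 11.4 CPM, all higher, with library 2 only just above the highest sham value. The log2 fold change was 1.63 (SE 0.39, adjusted p = 0.00863). A gene on the other strand, 8030451A03Rik, shares 176 exon bases with Tnc and has no row of its own.

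Sparc, Tgfbi and Fap rose by about 2-fold or less. Sparc (ENSMUSG00000018593.13, chromosome 11, 55394500 to 55423183, minus strand) encodes the collagen-binding protein SPARC, also called osteonectin, which helps procollagen mature and is made by endothelial and smooth muscle cells too. Its sham libraries held 245, 324, 305, 277 and 369 CPM and its TAC libraries 655, 289, 758, 1076 and 448 CPM. TAC library 2 lay inside the sham range and the other 4 above it. The log2 fold change of 1.09 (SE 0.33, adjusted p = 0.0241) was the least secure call of the 8: it ended without sham library 1 or 4, without TAC library 3 or 4, and with a term for ear tag series (adjusted p = 0.0585, 0.0542, 0.0566, 0.0938 and 0.0566, edgeR).

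Tgfbi (ENSMUSG00000035493.10, chromosome 13, 56609523 to 56639562, plus strand) encodes TGF-beta-induced protein, the fasciclin-domain relative of periostin. Levels were 23.4, 24.2, 21.6, 20.97 and 26.6 CPM in sham and 34.9, 47.3, 34.3, 32.2 and 40.9 CPM in TAC. The groups did not overlap, but the order within TAC was the opposite of that of Postn: library 2 was highest and library 4 lowest. The log2 fold change was 0.70 (SE 0.16, adjusted p = 0.00715). Fap (ENSMUSG00000000392.17, chromosome 2, 62500943 to 62574075, minus strand) ran from 4.03 to 5.29 CPM in sham and from 5.43 to 9.72 CPM in TAC (log2 fold change 0.78, SE 0.16, adjusted p = 0.00402).

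The animals' ear tags fall into 3 series (100s, 500s and 600s), which the labels do not explain. No sham mouse is in the 500s, and no sildenafil mouse is in the 100s. Within the 100s (2 TAC and 3 sham mice) the difference in mean log2 CPM was 2.55 for Postn, 3.49 for Cilp, 2.47 for Spp1 and 0.59 for Sparc. Within the 600s (2 and 2 mice) the same differences were 3.57, 3.88, 3.83 and 1.12. All 8 genes were higher in TAC within both series.

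Ordered by level per length (CPM per kb of merged exons in GENCODE M21), the genes took different places in the 2 groups. In sham Sparc stood alone at 80.3 ± 12.4 CPM per kb (SD, n = 5). Postn (10.7 ± 1.79), Cilp (9.51 ± 2.43), Tgfbi (6.19 ± 0.591) and Fn1 (5.66 ± 1.52) followed, and each overlapped the next in this order. Fap (0.842 ± 0.0922), Tnc (0.597 ± 0.249) and Spp1 (0.320 ± 0.135) came last, far below, and again each overlapped the next. In TAC the levels per length of Sparc (170 ± 79.6), Postn (155 ± 127) and Cilp (149 ± 69.5) overlapped, so that both genes that stood far below Sparc in sham were level with it within the spread. Fn1 (24.9 ± 15.1) and Tgfbi (10.1 ± 1.64) came next and also overlapped. Spp1 moved from the last place to the sixth (4.67 ± 3.73 CPM per kb), past Tnc (1.84 ± 0.648) and Fap (1.44 ± 0.292), though its range overlapped both.

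**Figure D3:**
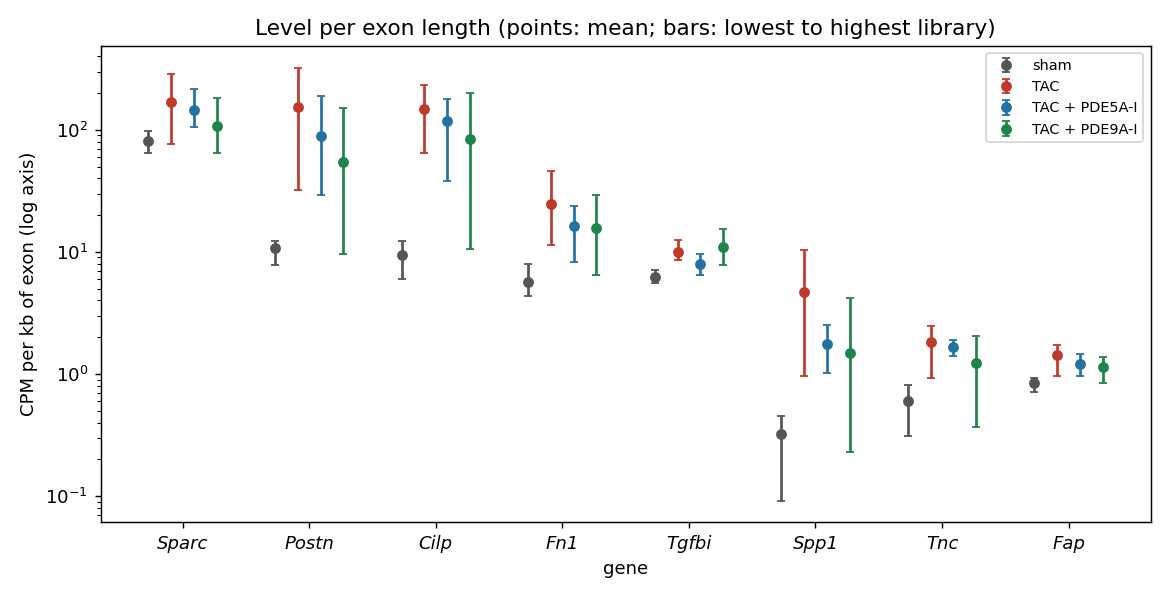
CPM per kb of merged exons on a log axis (vertical) for the 8 genes (horizontal) in the 4 groups; points are means and bars run from the lowest to the highest library. Sparc stands clear of Postn and Cilp in sham, and the 3 overlap in each of the TAC-operated groups.

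TAC hearts differed from each other far more than sham hearts. The SD of log2 CPM of Postn was 0.26 in sham and 1.41 in TAC, with the highest TAC library 10.1 times the lowest. For Fn1 the SDs were 0.37 and 0.87 and for Sparc 0.22 and 0.73. Tgfbi (0.14 and 0.23) and Fap (0.16 and 0.33) varied little in both groups, and Tnc varied slightly less in TAC (0.58) than in sham (0.68). Averaged over the 8 genes, TAC library 4 was 2.87 above the sham mean on the log2 scale, library 3 was 2.59, library 1 was 2.06, library 5 was 1.77 and library 2 was 1.12.

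Sildenafil was set against untreated TAC. None of the 8 genes was called, beside 2 of all 14135 genes (0.0141%). All 8 log2 fold changes were below 0, as were 51.1% over all genes, with a median of -0.34 against 0.00 over all genes. Most of the 8 genes vary together across libraries, as given below, so their shared sign is not 8 separate observations. The same TAC libraries serve in the comparison with sham and in that with the other inhibitor.

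Postn stood at 457, 253, 764, 1643 and 720.0 CPM with sildenafil. All 5 values were above sham and within or just below the TAC range (log2 fold change -0.81, SE 0.65, 95% interval -2.16 to 0.54, adjusted p = 0.962). Spp1 stood at 2.94, 1.67, 2.12, 3.74 and 4.16 CPM. Each lay below 4 of the 5 TAC libraries and above the remaining 1, and the spread was small beside that of TAC (SD of log2 CPM 0.54 against 1.3). Its log2 fold change was -1.40 (SE 0.58, 95% interval -2.62 to -0.18), with an adjusted p = 0.947 by edgeR. It alone of the 8 had an unadjusted p under 0.05, where 2.6% of all genes were lower with such a p.

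The other 6 were closer to TAC. The log2 fold changes were -0.60 for Fn1 (95% interval -1.52 to 0.32), -0.35 for Cilp (-1.53 to 0.84), -0.33 for Tgfbi (-0.67 to 0.01), -0.25 for Fap (-0.58 to 0.08), -0.23 for Sparc (-0.92 to 0.46) and -0.15 for Tnc (-0.93 to 0.63). The intervals of Cilp, Tnc, Sparc, Fn1 and Postn each run from a fall to a rise. Tnc was tight under sildenafil, from 10.9 to 14.7 CPM, an SD of log2 CPM of 0.20. Within ear tag series, Postn differed from TAC by -2.68 in the 500s (2 against 1 mice) and -0.29 in the 600s (3 against 2). Cilp differed by -1.77 and -0.07 in the same order. The TAC mouse of the 500s was that of TAC library 3.

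PF-04449613 was set against the same TAC libraries. Again none of the 8 was called, beside 1 of all genes (0.00707%). Of the 8 log2 fold changes 7 were below 0 (48.9% over all genes) and the median was -0.66 against 0.00 over all genes. Unadjusted p was under 0.05 for 3 genes, all lower, where 6.99% of all genes were lower with such a p. These were Spp1 (log2 fold change -1.66, SE 0.56, 95% interval -2.84 to -0.49, adjusted p = 0.254), Postn (-1.5, SE 0.62, -2.79 to -0.20, adjusted p = 0.294) and Fap (-0.34, SE 0.15, -0.66 to -0.03, adjusted p = 0.311), by edgeR.

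**Figure D4:**
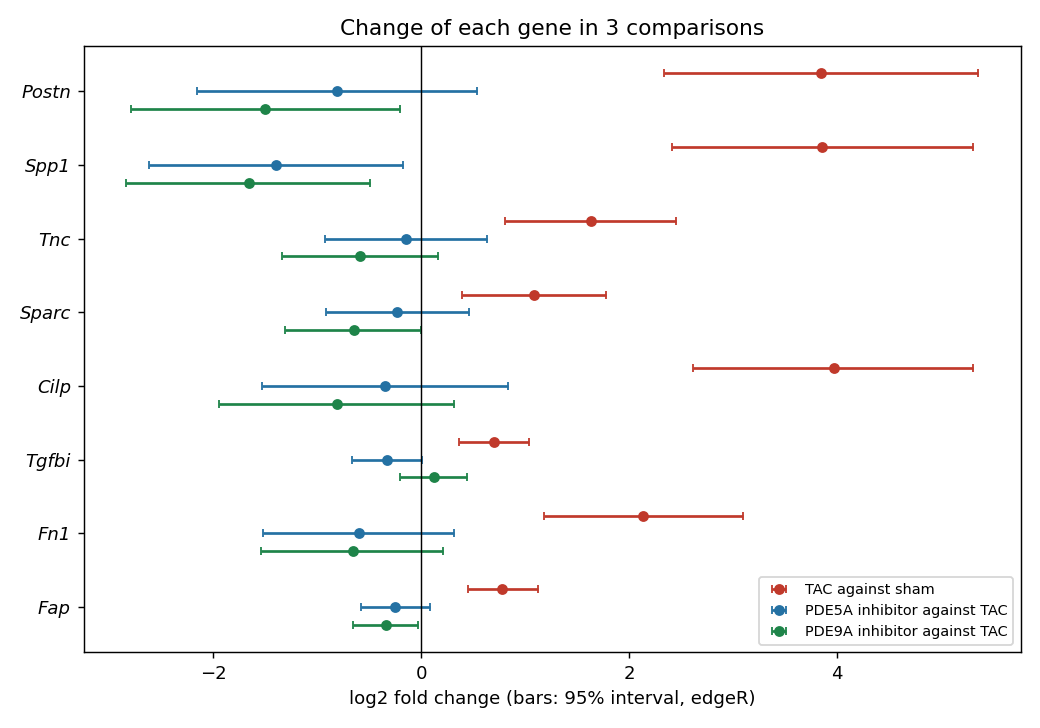
Log2 fold change (horizontal) of each gene (vertical) in TAC against sham, PDE5A inhibitor against TAC and PDE9A inhibitor against TAC; points are edgeR estimates and bars are 95% intervals. The TAC against sham intervals all lie above 0, and most of the inhibitor intervals include 0.

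By the highest library over the lowest, 6 of the 8 genes ranged most widely in the PDE9A inhibitor group, and Sparc (3.72-fold against 2.82-fold) and Fap (1.79-fold against 1.63-fold) ranged more widely in TAC. This measure grows with the number of libraries, 6 here and 5 in TAC. By SD of log2 CPM, Postn (1.39 against 1.41 in TAC), Fn1 (0.91 against 0.87) and Spp1 (1.38 against 1.3) were about as wide in both groups. Cilp (1.58 against 0.75), Tnc (0.97 against 0.58) and Tgfbi (0.38 against 0.23) were wider with the PDE9A inhibitor. Postn ran from 83.3 CPM in library 6, inside the sham range, through a median of 306 to 1322 CPM in library 3. Cilp ran from 45.2 CPM, also in library 6, through 252 to 852 CPM in library 4, an 18.9-fold range against 3.60-fold in TAC. Spp1 ran from 0.377 through 1.71 to 6.90 CPM, and Tnc from 2.85 through 8.79 to 15.99 CPM. By library, 2 of the 8 genes were above the highest sham library in library 6 (Tgfbi and Fap), 5 in library 5, 6 in library 1, and all 8 in libraries 2, 3 and 4.

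Averaged over the 8 genes, libraries 3 and 4 were each 2.17 above the sham mean on the log2 scale, beside 2.59 and 2.87 in the highest TAC libraries. Library 1 was 1.3 above, library 2 was 1.10, library 5 was 0.57 and library 6 was 0.00. The group mean thus stands for hearts spread in steps from the sham level to well within the TAC range. Markers of other cells moved along the same line: the cardiomyocyte markers summed to 209182 CPM in library 6 and 147113 CPM in library 4, and the macrophage markers to 259 and 447 CPM. Their part in the result was not tested.

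Without PDE9A inhibitor libraries 1 and 4 none of the 8 genes was called against TAC either, and the log2 fold changes were between -2.66 (Spp1) and 0.03 (Tgfbi). Within the ear tag series, Postn was lower than in TAC in each: by a difference of -1.09 in the 100s (1 against 2 mice), -2.12 in the 500s (4 against 1) and -3.83 in the 600s (1 against 2). Spp1 differed by 0.16, -2.34 and -4.39 in the same order.

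Tgfbi did not follow the other 7. In the PDE9A inhibitor group it ran from 29.3 through a median of 38.3 to 58.2 CPM, and all 6 libraries lay above the highest sham library. Its difference from TAC was 0.12 (SE 0.15, 95% interval -0.20 to 0.44, adjusted p = 0.754), and it turned to -0.01 without library 3. Library 1, the one with the atrial markers, held 50.8 CPM, the second highest value, and the part of atrial tissue in it was not tested. Under sildenafil it stood at 33.1, 24.2, 35.9, 31.2 and 26.3 CPM, with 3 of 5 libraries above the sham range. Between the inhibitors Tgfbi was lower with sildenafil (log2 fold change -0.45, SE 0.16, 95% interval -0.77 to -0.13, adjusted p = 0.355 by edgeR), which did not pass. It alone of the 8 had an unadjusted p under 0.05 there, where 5.91% of all genes were lower with such a p.

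Comparing the inhibitors directly, none of the 8 genes was called, beside 0.00707% of all genes. The intervals were wide for most: Postn 0.69 (95% interval -0.60 to 1.97), Cilp 0.46 (-0.67 to 1.60), Tnc 0.44 (-0.31 to 1.19), Sparc 0.42 (-0.23 to 1.08), Spp1 0.26 (-0.93 to 1.46) and Fn1 0.06 (-0.81 to 0.94), as PDE5A inhibitor over PDE9A inhibitor on the log2 scale. For Fap it was narrower, 0.09 (-0.23 to 0.41). Without PDE9A inhibitor libraries 1 and 4 the difference was 1.26 for Spp1, 0.97 for Cilp, 0.79 for Tnc and 0.32 for Fn1, and none was called. Postn stood at 1.32 without PDE9A inhibitor library 3 and at 0.21 without PDE5A inhibitor library 4. The intervals of Postn, Cilp, Tnc, Sparc and Spp1 over all libraries hold both no difference and a 2-fold higher level with sildenafil.

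Both treated groups were also set against sham. With sildenafil 6 of the 8 rose, where 6.81% of all genes did, and 7 had no overlap with sham, where 6.81% of all genes lay above it with no overlap. Log2 fold changes were 3.62 for Cilp (adjusted p = 0.00433), 3.04 for Postn (0.0118), 2.46 for Spp1 (0.0265), 1.54 for Fn1 (0.0314), 1.48 for Tnc (0.0210) and 0.53 for Fap (0.0354). Sparc stood at 0.85 (adjusted p = 0.0833) and Tgfbi at 0.37 (adjusted p = 0.121). The count rests on few libraries: it was 2 without sham library 1 or 4 or PDE5A inhibitor library 4, 3 without sham library 2 or PDE5A inhibitor library 5, and 1 with a term for ear tag series, while Cilp was called each time. It was 8 with the 2 groups fitted alone.

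With the PDE9A inhibitor 2 of the 8 rose against sham, Cilp (log2 fold change 3.15, SE 0.61, adjusted p = 0.0193) and Tgfbi (0.82, SE 0.16, adjusted p = 0.0184), where 2.17% of all genes rose. Tgfbi alone had no overlap with sham, which held for 1.61% of all genes on the higher side. Postn missed the threshold narrowly (2.35, SE 0.66, adjusted p = 0.0501), and Fn1 (1.47, adjusted p = 0.0583), Spp1 (2.20, adjusted p = 0.0654), Fap (0.44, adjusted p = 0.0917), Tnc (1.04, adjusted p = 0.0980) and Sparc (0.43, adjusted p = 0.386) followed. The count was 6 by DESeq2 and 0 with a term for ear tag series or without PDE9A inhibitor libraries 1 and 4. Leaving out 1 library at a time it was 6 without PDE9A inhibitor library 6, 5 without library 2 or 5, 1 without library 3 or 4 or sham library 1 or 2, and 0 without sham library 3.

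Among the 16 TAC-operated libraries 6 of the genes moved as a block. Pearson's r of log2 CPM ran from 0.75 to 0.95 (Spearman's rho 0.69 to 0.97) over the 15 pairs of Postn, Sparc, Cilp, Fn1, Spp1 and Tnc, and from 0.70 to 0.94 after group means were removed. Leaving out for each pair the 2 libraries farthest from the median it ran from 0.59 to 0.94. Postn and Sparc were closest (r = 0.95), although Sparc changed far less. Fap was looser, with r of 0.46 to 0.76 with these 6. Tgfbi had r between -0.07 and 0.19 with each of the other 7, and between -0.06 and 0.42 after group means were removed, the highest with Cilp. These are descriptions without a test; the genes were read from the same libraries and share their scaling, and the 3 groups share no animal.

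**Figure D5:**
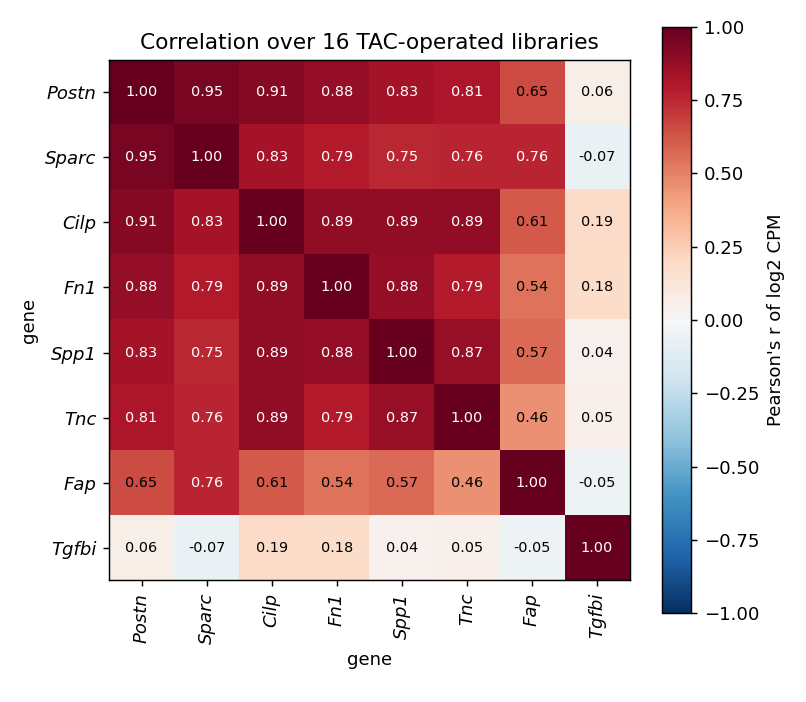
Pearson's r of log2 CPM for each pair of genes (rows and columns) over the 16 libraries of the TAC, PDE5A inhibitor and PDE9A inhibitor groups, on a colour scale from -1 to 1. A block of 6 genes with r of 0.75 or more is followed by Fap and then Tgfbi, whose row is near 0.

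For each of the 8, the 3 genes with the highest r out of all genes tested in these 16 libraries are named. Postn was followed by Col8a1 (a short-chain collagen) and Mfap5 (a microfibril protein), both with r = 0.99, and by Fstl1, the SPARC-family protein, with r = 0.98. Cilp was followed by Itgbl1 (0.99), Frzb (0.98) and Mfap4 (0.97), and Sparc by Pcolce, the procollagen C-protease enhancer, Ptgfrn and Igfbp7 (0.98 each). Fn1 was followed by the collagen cross-linking enzyme Lox (0.97), Vat1 and Fat1 (0.96 each). For Spp1 the nearest were Ltbp2 and Col12a1 (0.94 each) and Loxl3 (0.93).

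The nearest genes to Tnc were Nsmf and Cers2 (0.92 each) and Dpy19l1 (0.90), and those of Fap were Rfc5 (0.86), Dnajb11 (0.85) and Atg4b (0.84). The nearest genes to Tgfbi were looser still: Kank2 (0.82), Mapk12 (0.78) and Wdr35 (0.76). The same libraries tied Postn to the load marker Nppa (r = 0.95), to Tgfb2 (0.94) and to Meox1, a transcription factor of fibroblast activation (0.94), whereas Tgfbi had r of 0.05, 0.03 and 0.04 with them. With group means removed these 3 values for Tgfbi were 0.18, 0.16 and 0.24. Tgfbi had a higher r with the fibroblast markers Dcn (0.57) and Pdgfra (0.47) than with those 3 genes. Most other genes followed here were closer to Dcn: Cilp (0.80), Fn1 (0.73), Postn (0.68), Tnc (0.63) and Spp1 (0.62). Sparc (0.49) and Fap (0.29) were less close. With Pdgfra, Cilp had the same r of 0.47, and the rest ran from -0.07 (Fap) to 0.40 (Fn1), with 0.28 for Postn. Nppa, Tgfb2, Meox1, Dcn and Pdgfra were chosen after their values were seen. Among the marker lists Tgfbi had its highest r with the atrial list (0.59), of which only Myl4 was tested, beside 0.43 with the fibroblast list. The other genes followed here all had a higher r with the fibroblast list, from 0.46 (Fap) to 0.90 (Cilp).

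Of 23 listed relatives of the 8 by protein family 14 were tested, and 4 rose and none fell in TAC against sham, where 12.2% of all genes rose, with a median log2 fold change of 0.11 against 0.00 over all genes. The SPARC relatives Fstl1 (1.72, SE 0.43, adjusted p = 0.00919), Smoc2 (0.53, SE 0.14) and Sparcl1 (0.43, SE 0.09) rose. So did Cilp2, the second CILP gene, from a mean of 0.406 CPM to 4.92 CPM (3.50, SE 1.12, adjusted p = 0.0292). The size of the Cilp2 rise thus rests on a low baseline. Tenascin-X (Tnxb) stood at -0.07 (SE 0.15) and Dpp4, the close relative of Fap, at -0.02 (SE 0.35).

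Of 14 listed receptors for these proteins 6 rose and none fell (median 0.40), where 12.2% of all genes rose. Itgb5 and Itga9, integrin subunits that take part in osteopontin and tenascin-C binding, each rose by 0.99 (SE 0.20), Itgb8 by 1.10 (SE 0.32) and the innate immune receptor Tlr4 by 0.75 (SE 0.14). Cd44, the hyaluronan and osteopontin receptor, stood at 0.73 (SE 0.31, adjusted p = 0.0852). Of 20 upstream regulators 11 rose, beside the same 12.2% of all genes, and none fell (median 0.52). Tgfb2, a TGF-beta ligand, rose by 1.99 (SE 0.40) and the transcription factor Twist1 by 1.5 (SE 0.25). The mechanosensitive coactivators Wwtr1 (TAZ) and Yap1 rose by 0.55 (SE 0.11) and 0.34 (SE 0.07). Smad2, Smad3 and Smad4, which carry the TGF-beta signal, stood at -0.05, -0.12 and -0.03.

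Of 12 genes that cross-link or cut these proteins 8 rose and none fell (median 0.74), where 12.2% of all genes rose. Lox rose by 3.49 (SE 0.75), the gelatinase Mmp2 by 1.58 (SE 0.34), its activator Mmp14 by 0.99 (SE 0.25) and transglutaminase Tgm2, which cross-links fibronectin, by 0.73 (SE 0.18). Of 14 other genes of activated fibroblasts 12 rose (median 3.05), beside the same 12.2% of all genes. Those with the lowest adjusted p were Thbs4 (4.51, SE 0.73), Col12a1 (4.53, SE 0.75), Ltbp2 (4.53, SE 0.86) and Col8a1 (2.61, SE 0.52). The contractile actin Acta2, the classical marker of myofibroblasts, stood lower in TAC (73.0 against 105 CPM, log2 fold change -0.52, SE 0.30, adjusted p = 0.208). No member of any of these 5 lists was called in either inhibitor comparison with TAC or between the inhibitors. The lists were chosen with earlier results of these data known, so their shares beside the 12.2% were partly built in. Lox was counted both among the genes that cross-link or cut and among those of activated fibroblasts.

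Markers of several cell types moved with the block of 6 genes, and less with Fap and Tgfbi. Of 10 general fibroblast markers 7 rose in TAC (median 0.51, where 12.2% of all genes rose), among them Mgp (1.78, SE 0.31), Dcn (0.83, SE 0.16) and Pdgfra (0.50, SE 0.15). Their sum ran from 2443 to 2905 CPM in sham, 3485 to 4087 CPM in TAC, 2758 to 4170 CPM in the PDE5A inhibitor group and 2979 to 4854 CPM in the PDE9A inhibitor group. Over the TAC-operated libraries their mean level had r of 0.90 with Cilp, 0.88 with Fn1, 0.81 with Postn, 0.74 with Tnc, 0.70 with Spp1 and Sparc, 0.46 with Fap and 0.43 with Tgfbi. Of 10 macrophage markers tested, 4 rose and 1 fell in TAC (median 0.41), where 12.2% of all genes rose. Lgals3 (2.46, SE 0.62) and Cx3cr1 (1.5, SE 0.42) rose most, and Cd163 fell (-0.82, SE 0.25). Cd68 (0.04), Lyz2 (0.02), Mrc1 (0.08), Csf1r (0.24) and Trem2 (0.58) were not called. The macrophage markers summed to 274 to 373 CPM in sham and 341 to 428 CPM in TAC. Their mean level had r of 0.73 to 0.84 with each of the block of 6, 0.41 with Fap and 0.37 with Tgfbi. Of 10 cardiomyocyte markers 5 fell (median -0.37). Of all 14135 genes 3558 were called in either direction, of which 1718 rose and the rest fell. The mean level of the cardiomyocyte markers had r of -0.91 with Postn, -0.90 with Sparc and 0.01 with Tgfbi. Of 4 tested markers of valve, tendon and cartilage 3 rose (12.2% of all genes did): Tnmd (4.82, SE 0.85), Acan (4.06, SE 0.93) and Scx (1.67, SE 0.37). In sham Tnmd and Acan averaged only 0.128 and 0.0635 CPM (3.62 and 1.09 CPM in TAC), so the size of their rise rests on a near-zero baseline. Genes this low in sham pass the filter on low counts through the groups where they are higher. The count of 3 of 4 is thus partly set by the filter, and it cannot be weighed against the 12.2%. All 6 of that list summed to 4.99 to 6.62 CPM in sham and 10.5 to 28.8 CPM in TAC, and their mean level had r of 0.86 with Postn and 0.14 with Tgfbi. The part of these cell types in the levels of the 8 genes was not tested. Endothelial markers, of cells that also make SPARC, gave no call in any of 7 genes (median -0.08). Of 6 smooth muscle and pericyte markers Tagln rose (1.12, SE 0.40) and Abcc9 fell (-0.82, SE 0.20), beside 3558 of all 14135 genes called in either direction. Myh11, Cnn1, Rgs5 and Kcnj8 were not called, and the median of the 6 was 0.06. Of 5 erythroid markers none was called (median -0.76). The atrial and mesothelial lists each had 1 gene tested, and neither was called.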

How the data were processed

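The authors deposited 1 table of RSEM expected counts per gene symbol, not scaled between libraries, with a column per animal. The submitters' processing notes name RSEM 1.3.0, HISAT2 2.0.5, CASAVA 1.8.4, mm10 and DESeq2 1.18.1, without saying what each did. The sources used here give neither annotation nor strand setting. Each library began from 500 ng of total RNA and kept strand, per the labels' protocols. Expected counts were rounded, 27 rows with a date in place of a symbol stayed in the tests unnamed, and groups came from sample titles.

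Low counts were removed with filterByExpr, and edgeR 4.0.16 (R 4.3.3) fitted 1 quasi-likelihood model, with 1 mean for each group, over all 21 libraries (TMM scaling, robust), so 6 comparisons share 1 spread. P-values were adjusted over the 14135 genes tested, and a gene was called under 0.05. Only called genes are said to have risen or fallen. SE belongs to the log2 fold change. Log2 CPM has a prior count of 2. Alternatives were DESeq2 1.42.0, RLE scaling, no filter, the 2 groups alone, the ear tag series or the replicate number as a term, and leaving out libraries. The procedure was run on simulated data in which each gene was drawn separately. That check therefore does not cover variation shared between genes, as seen here. Coordinates, exon lengths and overlaps come from GENCODE M21 (GRCm38, the assembly that mm10 names).

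The 8 genes, the gene lists and the markers were chosen with earlier results of these data known. Named are the 8 genes, up to 4 called members of each list with the lowest adjusted p in TAC against sham, and the 3 genes with the highest r with each of the 8; single genes given as not called, and Meox1 and Nppa, were added after their values were seen.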

Additional observations from a re-analysis of the deposited data

Results flagged for a closer look

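Of 32 sets of values (8 genes in 4 groups) 1 held a library far from the rest. In sham library 1 Spp1 stood at 0.151 CPM, from 4 counts, while the other sham libraries held 0.557 CPM or more. On the log2 scale its gap to the next library was 0.8 of the whole range of the group, over the critical value of 0.71 for 5 values. About 1 in 20 such sets would exceed it by chance. Without that library the log2 fold change of Spp1 in TAC against sham stayed called.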

How the results depend on the processing

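In TAC against sham 7 or 8 of the 8 genes rose under every alternative run, including each library left out, and the gene lost was Sparc. No gene was called against TAC, or between the inhibitors, under any alternative. Of 48 changes (8 genes in 6 comparisons) 3 turned direction, none of them called: Sparc with sildenafil against TAC (-0.42 to 0.03 leaving out 1 library), Tgfbi with the PDE9A inhibitor against TAC (-0.01 to 0.21) and Fn1 between the inhibitors (-0.11 to 0.33, and -0.03 with the replicate block). Against sham the number that rose with sildenafil was 6, from 2 to 6 leaving out 1 library, 1 with the ear tag series and 8 with the 2 groups alone. For the PDE9A inhibitor it was 2, from 0 to 6 leaving out 1 library, 6 by DESeq2, 6 with the replicate block, and 0 with the ear tag series, with the 2 groups alone or, added after the data were seen, without PDE9A inhibitor libraries 1 and 4. Over all genes 540 were called in that comparison, but 6 with the ear tag series and 2241 with the replicate block. The cause was not tested. The labels tie no animals by replicate number. Same-numbered libraries had correlations of their deviations between -0.22 and 0.56, and over 0.1 in at most 3 of 5 pairs. Within each group the numbers run in ear tag order, so the replicate block overlaps in part with the ear tag series. Depth limits Spp1 most, at 4 to 21 counts per sham library.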
